A study of Mus musculus with 14 samples.

Results

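Total RNA of mouse liver was measured in 6 bulk libraries, 3 labelled wild type and 3 labelled Ms4a7 KO (knockout), out of 14 libraries in the series. By their labels all 6 come from mice fed for 22 weeks on a NASH diet, one that brings on nonalcoholic steatohepatitis, a fatty liver disease with inflammation. They were chosen by these labels, with earlier results of these data known. The other libraries are 6 of bulk liver of chow-fed mice after 6 days of injection of lipid droplets (LD) or phosphate-buffered saline (PBS), which share no sample with this comparison, and 2 of single nuclei. Strain, sex and age of the mice, the extent of the Ms4a7 deletion and whether it is confined to a cell type are not given in the sources used here. Nothing in the labels says that the numbered replicates are separate animals, so p values measure the spread between these libraries, which may be in part technical.

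The sample labels disagree with the deposited table that holds these libraries. The table is named for lipid droplets and not for the knockout, the table of the PBS and LD libraries is named for Ms4a7, and the first header line of the present table calls the columns labelled wild type "Untreated" and those labelled KO "Treated". Ms4a7 (GRCm38 chromosome 19, 11321039 to 11336146), a membrane protein of macrophages, went against the genotype labels as well. Its normalised count was 9.70, 25.8 and 23.3 in wild type replicates 1, 2 and 3 and 102, 117 and 136 in KO replicates 1, 2 and 3. All 3 labelled KO were above all 3 labelled wild type, with a log2 fold change of 2.63 ± 0.37 (SE, adjusted p = 0.0149), and the call was lost without KO replicate 2 (adjusted p = 0.063) or 3 (adjusted p = 0.0538). A count over the whole gene can include reads from outside a deleted part, so it does not by itself test the deletion. In the separately scaled table the gene was at 62.2, 84.7 and 163 normalised counts under the label PBS and at 10.5, 7.60 and 9.32 under the label LD. In nuclei, where it was highest in the group numbered 3, its mean level (molecules scaled to 10000 per nucleus) was 1.25 in the library labelled wild type and 0.622 in the library labelled KO, so that the nuclei and the bulk libraries differed in direction. Which of the labels and the table names is right cannot be settled from the sources used here. If the table names held, the values below would compare lipid droplet with PBS injection on chow. Groups are called "labelled KO" and "labelled wild type" below, the 3 values of a gene are given in the order of replicates 1, 2 and 3, wild type first, and directions refer to labels only.

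A normalised count is a gene's read count divided by a size factor of its library, and 1 read was worth 1.15 to 1.29 of them. Fold changes are labelled KO over labelled wild type on log2 of the normalised count plus 1, with the standard error of a limma fit over 15827 genes, and "rose", "fell" and "called" mean an adjusted p under 0.05 in that fit. Each library held 21945394 to 23126164 reads in genes, and 17.2% to 20.3% of them lay in the 10 leading genes. The fit called 589 genes, 3.72% of those tested: 478 rose (3.02%) and 111 fell (0.701%). All 589 had groups that did not overlap, against 24.2% of all genes tested. With 3 libraries per label a call all but requires this, so groups that lie apart add no support to a call. The median log2 fold change of all genes tested was -0.02. Calls that held in each of the 6 fits without 1 library numbered 97, of which 81 rose and 16 fell. Where a list's calls in these 6 fits are given below, they stand in the order of the library left out, wild type replicates 1, 2 and 3, then KO replicates 1, 2 and 3.

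Macrophages of the liver are the resident Kupffer cells and cells that descend from blood monocytes. Both sense microbial and tissue debris through pattern recognition receptors, which release the transcription factor NF-kappaB from its inhibitors and so induce chemokines, adhesion molecules and growth factors. Hepatocytes answer inflammatory cytokines by making acute phase proteins and are known to lower detoxifying enzymes and transporters. In bulk liver, more cells of a type and more RNA per cell cannot be told apart.

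The 3 libraries labelled KO did not differ from the others to the same extent. The first principal component held 45.8% of the variance and separated the labels, at -51.0, -27.7 and -35.3 for wild type and at 22.1, 39.3 and 52.7 for KO replicates 1, 2 and 3. Of the 478 genes that rose, KO replicate 1 was the labelled KO library nearest to the wild type mean for 401 (83.9%). The median log2 difference of these genes from the wild type mean was 1.41 in KO replicate 1, 1.92 in replicate 2 and 2.03 in replicate 3. Among the 111 genes that fell, KO replicate 1 was nearest for 57 (51.4%), and the medians were -0.72, -0.86 and -0.80. These genes were chosen with the same values, so the numbers describe the libraries and test nothing.

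**Figure D1:**
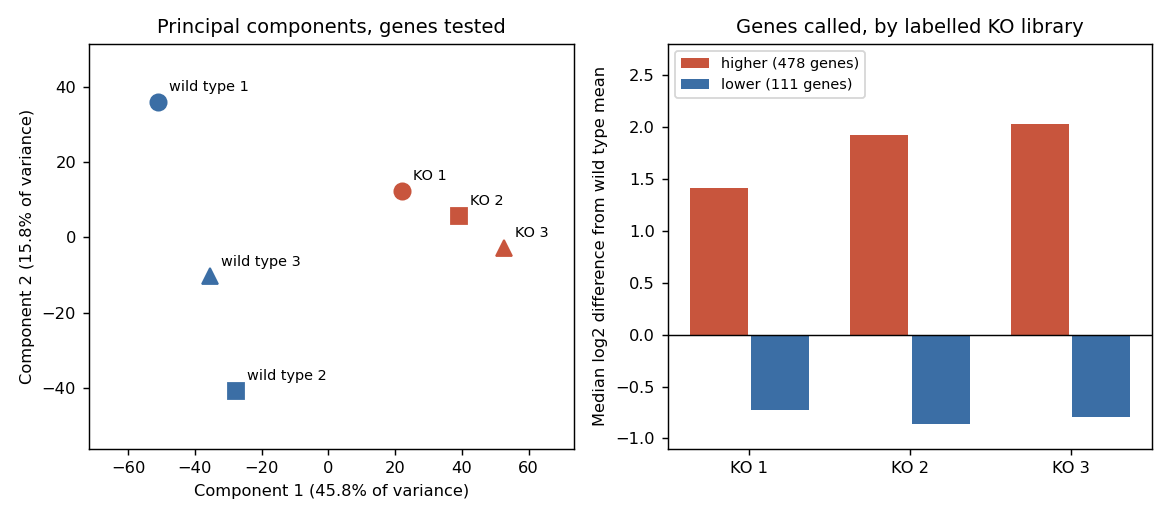
Left, scores of the 6 libraries on the first and second principal components of log2 values of the genes tested (axes in component units). Right, the median log2 difference of each labelled KO library from the wild type mean over the 478 genes that rose and the 111 that fell: for genes that rose the bars stand at 1.41, 1.92 and 2.03, lowest in KO replicate 1.

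Markers of macrophages moved with the label, and markers of most other cell types did not pass. Of 16 Kupffer cell markers tested, 9 rose, and their summed normalised count was 6413 to 12806 under the wild type label and 33472 to 55112 under the KO label. The 6 fits without 1 library called 8, 7, 8, 9, 2 and 4, so the count dropped without KO replicate 2 or 3. Marco, a scavenger receptor that binds bacteria, was at 239, 498 and 474 against 9216, 16625 and 16528, and Spic, a transcription factor of red pulp macrophages and iron-handling Kupffer cells, at 43.6, 101 and 60.0 against 296, 298 and 532. Both were higher in every library labelled KO, and both calls held without any 1 library. Clec4f, a lectin that defines resident Kupffer cells, was at 910, 1967 and 1671 against 1287, 2361 and 1616, groups that overlapped (log2 fold change 0.24, adjusted p = 0.75). Adgre1, the macrophage antigen F4/80, was at 204, 323 and 453 against 517, 776 and 1076 and did not pass (1.28 ± 0.34, adjusted p = 0.0881). The Kupffer list thus held both members that differed many-fold and members that did not pass.

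Monocyte and recruited macrophage markers rose in 8 of 14 cases, with a summed level of 10304 to 12317 against 21038 to 29972. Lyz2 alone made up most of the difference in this sum. The mean of Lyz2 was 804 against 13385, and the mean of the sum 11232 against 25850. The 8 calls include Ms4a7 itself. In nuclei 7 of 15 markers of this list were highest in the group numbered 3, as were 13 of 16 Kupffer markers. Of 11 markers of lipid-associated macrophages, 5 rose, and their sums lay close together, at 14232 to 15340 against 15101 to 17387. Itgax is counted among the calls of both lists. The 6 fits without 1 library called 8, 6, 6, 5, 3 and 3 of the first list and 3, 1, 2, 2, 0 and 1 of the second. Lyz2, the lysozyme of myeloid cells, was at 612, 944 and 856 normalised counts against 9025, 13990 and 17140, while Lgals3, a galectin, was at 77.6, 127 and 152 against 356, 557 and 455. Trem2, the receptor in the series title, was too low to test, at 1.21, 2.58 and 2.45 against 9.83, 15.4 and 20.7. The only neutrophil marker called among 4 tested was Csf3r, the only dendritic cell marker among 9 was Clec10a, and the only endothelial marker among 14 was Cdh5, which the Kupffer list holds too. No marker of T and NK cells (8 tested), B and plasma cells (7), stellate cells (14), cholangiocytes (7), hepatocytes (15), red blood cells (6), adipocytes (2) or exocrine pancreas (2) was called by limma. Of these lists, stellate cells had 5 members with an unadjusted p under 0.05 (edgeR called 1 and DESeq2 3), hepatocytes 2 (1 and 3), cholangiocytes 2 (0 and 2), B and plasma cells 1 (0 and 1) and adipocytes 1 (0 and 1), and the other 3 lists had 0 by each of these counts. The summed hepatocyte markers were 2967200 to 3285670 against 3189330 to 3628470, which overlapped. Those of cholangiocytes were 871 to 1202 against 1308 to 2210 and did not overlap, while the sums of the other lists with no call did. Low counts left some lists tested in part: 4 of 13 neutrophil, 8 of 15 T and NK cell and 7 of 11 cholangiocyte markers were tested. What part the macrophage markers' levels play in the gene groups below was not tested.

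The receptors that sense microbial products rose in part. Of 21 pattern recognition receptors and their regulators, 7 rose and none fell, and the median log2 fold change was 1.08. Tlr2, a receptor for bacterial lipoproteins, was at 33.9, 67.1 and 74.7 normalised counts against 370, 533 and 449, and its partner Tlr1 at 38.8, 51.6 and 50.2 against 160, 223 and 265. Cd14, which hands endotoxin to its receptor, was at 63.0, 83.9 and 100 against 297, 536 and 499. In all 3 genes the lowest library labelled KO was above the highest labelled wild type, and all 3 calls held without any 1 library. Tlr4, the endotoxin receptor itself, was at 7.75 to 19.6 in wild type and reached 39.2 in KO, with groups that overlapped (0.84, adjusted p = 0.396). Irak3, an inhibitor of this signalling that activated macrophages induce, was at 13.3, 32.3 and 25.7 against 130, 228 and 233 (3.04 ± 0.37, adjusted p = 0.0104). The lectin receptor Clec4e had 2 reads over the 3 wild type libraries and 133 over the 3 KO libraries, a ratio of 63.6 (exact interval 17.3 to 530), and its neighbour Clec4d 3 and 44 reads, a ratio of 14.0 (4.49 to 70.6). These intervals are at 95% and cover counting error only. Clec4e and Clec4d were under 10 normalised counts in every library labelled wild type, and passed the filter on low values only through the libraries labelled KO. The other member that rose was Nod2, whose call was lost in each of the 6 fits without 1 library. The 6 fits without 1 library called 6, 6, 5, 5, 4 and 4.

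Of 17 NF-kappaB subunits, inhibitors and kinases, 8 rose and none fell, and the same 7 of the 8 were called in each of the 6 fits without 1 library. Nfkb2 (chromosome 19, 46304320 to 46312385), which encodes the p100 precursor of the non-canonical pathway, was at 129, 124 and 125 normalised counts against 376, 390 and 446 (1.67 ± 0.12, adjusted p = 0.00202). Its partner subunit Relb (chromosome 7, 19606217 to 19629438) was at 18.2, 38.7 and 28.2 against 208, 239 and 318 (3.16 ± 0.30, adjusted p = 0.00474). The libraries of a label lay within a narrow range for Nfkb2, and both genes were higher in every library labelled KO. The canonical subunits did not pass: Rela was at 1238, 1228 and 1190 against 1360, 1413 and 1309 (0.16, adjusted p = 0.334), and Nfkb1 at 438, 418 and 421 against 543, 545 and 615 (0.41, adjusted p = 0.0632).

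The remaining calls in this list were inhibitors, a kinase and a co-regulator, several of them known targets of the pathway. Tnfaip3, which encodes the feedback inhibitor A20, was at 29.1, 49.1 and 30.6 normalised counts against 173, 200 and 238. The inhibitor Nfkbie was at 38.8, 41.3 and 41.6 against 122, 169 and 214, and Nfkbia at 914, 966 and 938 against 1706, 1543 and 1998. No library labelled KO came near the wild type range in these 3 genes, and their log2 fold changes were 2.49 ± 0.25, 1.99 ± 0.23 and 0.89 ± 0.11. Nfkbiz, a nuclear co-regulator, rose by 1.69 ± 0.21 and the kinase Ikbke by 1.24 ± 0.10. Bcl3 was called with all libraries (0.68 ± 0.14, adjusted p = 0.0422) and in none of the fits without 1.

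Promoters of the members called were searched for the kappaB-type motif GGGANNTTCC on both strands, in RefSeq windows of 250 bases before to 50 after a start (GRCm38.p6). A match stood in 4.53% of the 375 genes with a window that rose, in 4.17% of the 72 that fell, in 1.80% of 10915 genes tested and in 1.63% of the 27025 genes with a RefSeq window. Of 6 called NF-kappaB genes with a window, 2 held a match, Nfkbia and Nfkb2, as did 2 of 8 chemokines that rose, Cxcl1 and Cxcl10. A match is a description of these letters and not evidence of binding. The windows around the match of the 3 genes with a single start are shown, since they belong to genes that rose together. Capitals mark the match, and in Cxcl1 they cover 2 overlapping matches. Each sequence is read 5′ to 3′ on the gene's strand.
Cxcl1, chr5:90891134-90891224, plus strand, bases -111 to -21 from the start: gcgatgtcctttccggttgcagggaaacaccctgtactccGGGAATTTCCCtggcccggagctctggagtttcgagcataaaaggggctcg
Cxcl10, chr5:92348999-92349088, minus strand, bases -199 to -110 from the start: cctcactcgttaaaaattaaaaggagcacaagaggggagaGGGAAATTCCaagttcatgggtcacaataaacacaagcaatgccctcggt
Nfkbia, chr12:55492648-55492716, minus strand, bases -69 to -1 from the start: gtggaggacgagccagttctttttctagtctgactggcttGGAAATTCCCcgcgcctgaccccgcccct

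Chemokines had the largest share of calls among members tested of the lists, with 17 of 23 members tested. Ccl2, Ccl7 and Ccl12 were under 10 normalised counts in every library labelled wild type. They passed the filter on low values only through the libraries labelled KO, which can raise this share. Of 17 tested, 11 rose and 1 fell, with a median log2 fold change of 2.23, and the 6 fits without 1 library called 8, 8, 10, 9, 4 and 6. Cxcl1, which attracts neutrophils and whose promoter is shown above, was at 83.7, 77.5 and 119 normalised counts against 553, 796 and 668. Ccl2, which attracts monocytes, was at 2.42, 5.16 and 4.90 against 94.6, 131 and 89.9. Cxcl13, which attracts B cells, was at 29.1, 85.2 and 46.5 against 7295, 15522 and 15452, with KO replicate 1 the lowest of its label. The groups of these 3 genes did not overlap, their log2 fold changes were 2.85 ± 0.20, 4.39 ± 0.34 and 7.92 ± 0.42, and the calls held without any 1 library, as did that of Cxcl16, a membrane-bound chemokine and scavenger receptor (2.23 ± 0.26). Ccl12 had no read under the wild type label and 66 under the KO label, at least 21.0-fold higher against a floor of 3 reads over the group. Ccl7 had 3 and 73 reads, a ratio of 23.3 (7.65 to 115).

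Interferon-gamma-induced chemokines parted. Cxcl10 was at 14.5, 37.4 and 39.2 normalised counts against 160, 145 and 173, and rose (2.47 ± 0.37, adjusted p = 0.016). Cxcl9 was at 800, 797 and 3911 against 203, 156 and 228, and fell (-2.80 ± 0.57, adjusted p = 0.042). Wild type replicate 3 was far above the other libraries for Cxcl9, and that call held in only 1 of the 6 fits without 1 library. Of 22 genes of the interferon gamma response, 5 rose and 3 fell. Among those that rose besides Cxcl10 were the transcription factor Irf1 (0.59 ± 0.11) and the guanylate-binding genes Gbp2 (2.23 ± 0.36) and Gbp5 (2.07 ± 0.44). Those that fell besides Cxcl9 were further guanylate-binding genes: Gbp11 (chromosome 5, 105323042 to 105346472) was at 4056, 5650 and 3765 against 1216, 1214 and 1229, and Gbp2b at 64.3, 177 and 195 against 14.7, 30.7 and 21.9. The 3 libraries labelled KO were nearly equal for Gbp11, whose call held without any 1 library (-1.86 ± 0.15), while that of Gbp2b held in 1 of 6 fits. Members of this family have close copies that can share reads. In place of 8, the 6 fits without 1 library called 5, 4, 3, 6, 1 and 1 members.

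**Figure D2:**
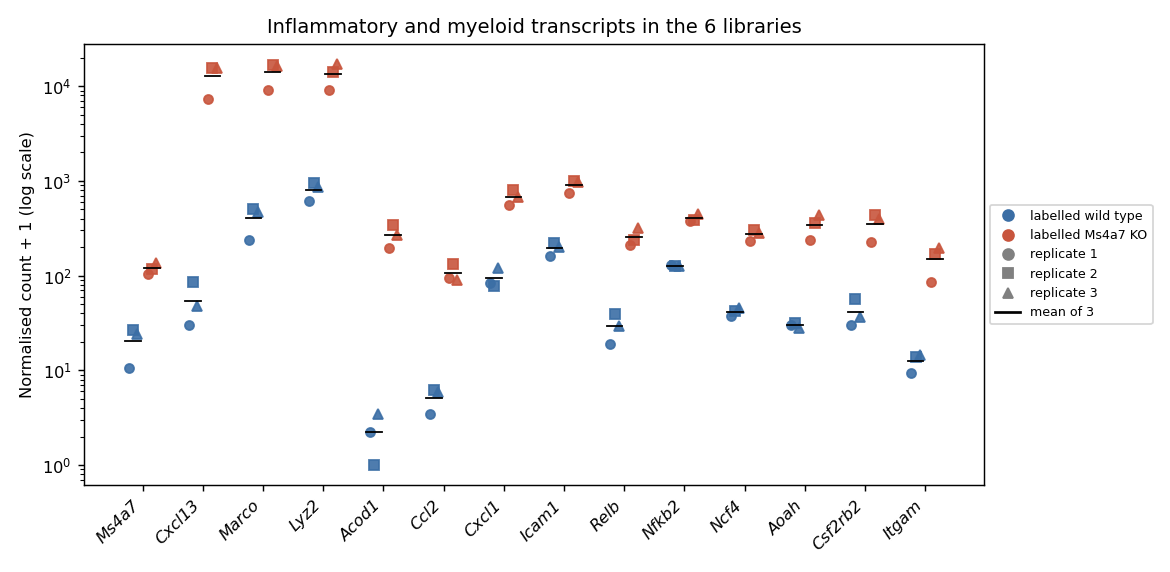
Normalised count plus 1 (log axis) of 14 inflammatory and myeloid genes in each library, with the replicate as symbol, the label as colour and the mean of 3 as a bar. All 3 libraries labelled KO lie above all 3 labelled wild type for each gene, by 1.67 log2 units for Nfkb2 and by 7.92 for Cxcl13.

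Receptors of colony-stimulating factors, which sustain myeloid cells, rose with the macrophage growth factor Csf1. Of 10 growth factors and receptors, 5 rose and none fell, with a median log2 fold change of 1.78, and the 6 fits without 1 library called 5, 4, 5, 5, 3 and 3. Csf1 was at 124, 160 and 151 normalised counts against 413, 473 and 461, and its receptor Csf1r at 797, 1437 and 1564 against 3481, 6253 and 6044. Csf2rb2, the subunit of the interleukin 3 receptor whose close copy is Csf2rb, was at 29.1, 55.5 and 35.5 against 226, 437 and 396, and Csf3r at 49.7, 67.1 and 100 against 231, 489 and 494. In the 3 receptor genes KO replicate 1 was the lowest of its label and still above every library labelled wild type. Of 12 TNF superfamily ligands and receptors, 3 rose (2, 3, 1, 1, 1 and 1 in the fits without 1 library). The costimulatory receptor Cd40 was at 7.27, 5.16 and 7.35 against 60.2, 66.2 and 61.1 (3.08 ± 0.28, adjusted p = 0.0044), with little spread within a label. Tnf itself was at 1.21, 9.04 and 6.12 against 36.9, 48.4 and 31.1, and its call held in 2 of the 6 fits. Cd40 and Tnf were under 10 normalised counts in every library labelled wild type. They passed the filter on low values only through the libraries labelled KO, which can raise the share called. Of 13 interleukin 6 family and STAT3 genes, Stat3 rose by 0.56 ± 0.11 and the receptor Lifr fell by 0.63 on the log2 scale, each in 1 of 6 fits without a library.

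Genes by which leukocytes adhere and take up opsonised particles formed 2 lists that share the integrins Itgam, Itgax and Itgb2. Of 15 adhesion molecules and selectins, 5 rose, and of 16 Fc and complement receptors, 10 rose. The 6 fits without 1 library called 4, 3, 4, 6, 2 and 2 of the first and 7, 6, 7, 8, 2 and 2 of the second. Icam1, the endothelial and myeloid ligand of leukocyte integrins, was at 160, 218 and 200 normalised counts against 745, 989 and 978 (2.22 ± 0.16). Itgam, the alpha chain of complement receptor 3, was at 8.49, 12.9 and 13.5 against 84.8, 170 and 194 (3.52 ± 0.36). Fcer1g, the signalling chain that Fc receptors share, was at 291, 474 and 496 against 1246, 1719 and 2200 (2.03 ± 0.26). These 3 calls held without any 1 library, and no value of one label fell within the range of the other. C5ar1, the receptor of the complement fragment C5a, was at 7.27, 23.2 and 12.2 against 87.2, 239 and 212, and its call held in 4 of 6 fits.

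The phagocyte NADPH oxidase, which makes superoxide, had 5 of 8 members called, all higher, with a median log2 fold change of 1.96. Ncf4, its cytosolic p40 subunit, was at 36.4, 41.3 and 44.1 normalised counts against 233, 300 and 280, and Ncf1, its p47 subunit, at 49.7, 80.1 and 79.6 against 245, 493 and 457. The membrane subunit Cyba was at 97.0, 226 and 214 against 639, 871 and 907. The groups of these genes did not overlap, and the calls of Ncf4 (2.71 ± 0.17) and Ncf1 (2.46 ± 0.31) held without any 1 library. The other 2 calls were the catalytic subunit Cybb and the GTPase Rac2, and the 6 fits without 1 library called 5, 4, 4, 4, 2 and 2. Of 18 scavenger receptors, 7 rose, 4 of which (Marco, Cd5l, Timd4 and Cd163) are also Kupffer markers above. Those fits called 6, 5, 6, 6, 2 and 3 scavenger receptors. Of 23 complement components, 4 rose: C1qa, C1qb and C1qc, the chains of the C1q recognition molecule that macrophages make, and properdin (Cfp). These C1q chains are also among the Kupffer markers that rose above. C1qa was at 740, 1715 and 1341 against 4502, 5167 and 5539. Complement calls in those fits were 4, 5, 4, 4, 0 and 1, and the median of the whole list was 0.07.

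Genes of several metabolic lists rose singly rather than as whole pathways. Acod1, which makes itaconate from a tricarboxylic acid cycle intermediate, had 1.21, 0 and 2.45 normalised counts against 195, 339 and 268. It was the 1 member called of 12 genes of itaconate, arginine and polyamine metabolism. Slc2a6, a hexose transporter of lysosomes, was at 1.21, 1.29 and 2.45 against 71.3, 168 and 149, from 4 and 329 reads, a ratio of 78.6 (30.4 to 290). These 2 genes were at 5 or fewer normalised counts in every library labelled wild type and at 50 or more in every library labelled KO. They passed the filter on low values only through the libraries labelled KO. In nuclei both were highest in group 5, which led for neutrophil markers. Acod1 was there at 3.09 (wild type label) and 6.07 (KO label), and in group 3, which led for Kupffer markers, at 0.0864 and 0.292. The cell type of these rises in bulk was not tested. Of 23 genes of glucose uptake and glycolysis, 5 rose, with a median log2 fold change of 0.13 over the list. Besides Slc2a6 these were the lactate exporter Slc16a3 (2.11 ± 0.31), pyruvate kinase Pkm (1.60 ± 0.25), hexokinase Hk2 (1.47 ± 0.26) and Pfkfb3 (0.77 ± 0.16), and the 6 fits without 1 library called 3, 2, 3, 4, 1 and 1 of the list. Aoah, which inactivates endotoxin by removing its acyl chains, was at 29.1, 31.0 and 26.9 against 236, 358 and 431 (3.47 ± 0.24). Procr, the protein C receptor, was at 6.06, 15.5 and 20.8 against 134, 288 and 219, and it was the 1 call among 26 coagulation and fibrinolysis genes. Of 12 prostaglandin and leukotriene genes, thromboxane synthase Tbxas1 (1.58 ± 0.26) and the phospholipase Pla2g7 (2.08 ± 0.41) rose, each called in 2 of the 6 fits.

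**Figure D3:**
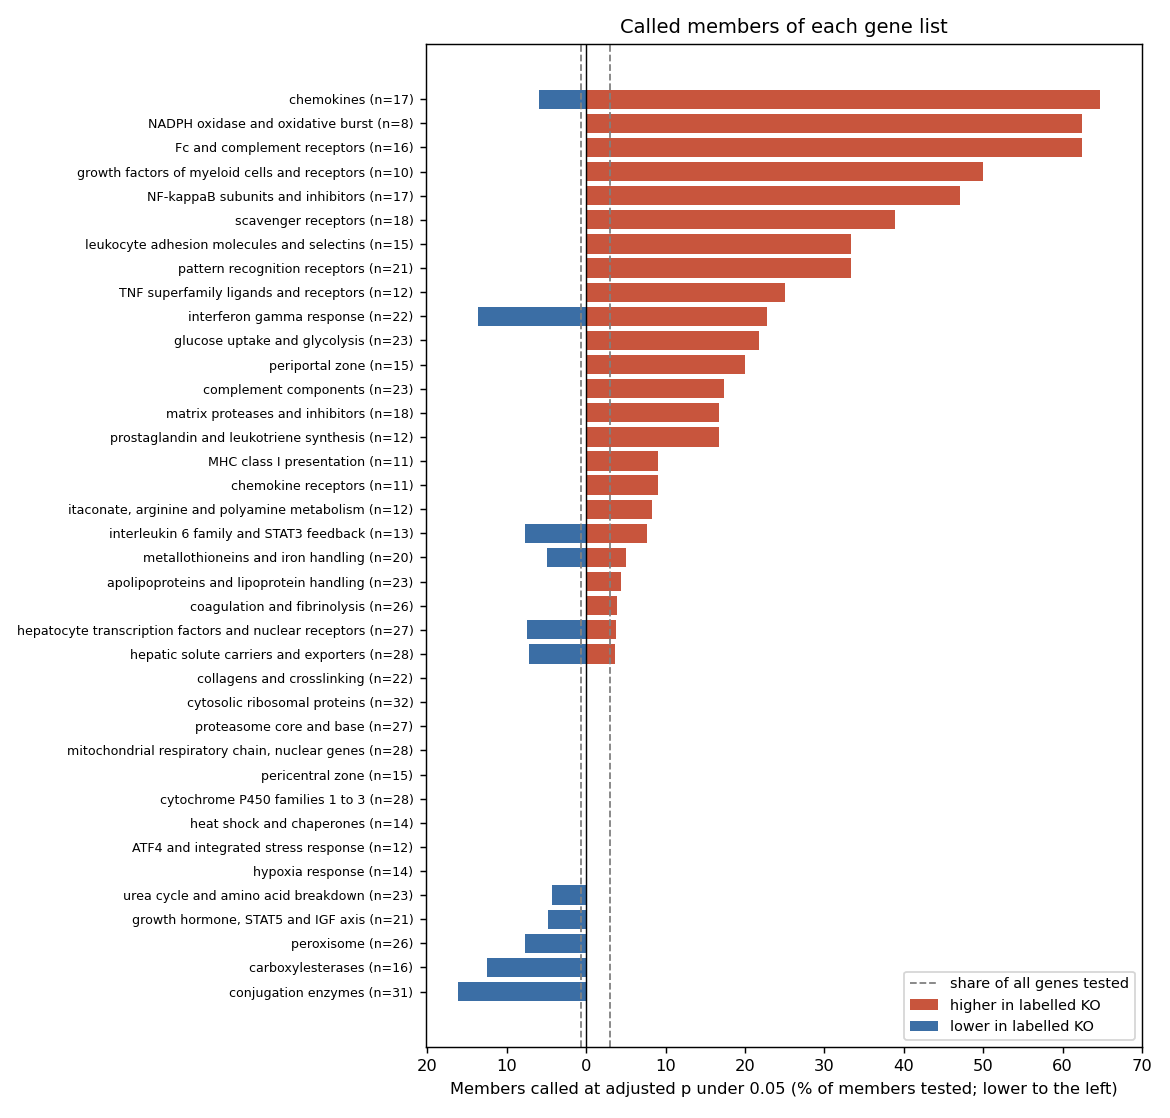
Share of the members tested of each list that were called higher (red, to the right) or lower (blue, to the left) in the libraries labelled KO, in percent, with the number tested in brackets. Dashed lines give the share of all genes tested, 3.02% higher and 0.701% lower. Immune lists lie to the right, led by chemokines with 11 of 17, and conjugation enzymes reach farthest to the left with 5 of 31.

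Among transcripts that hepatocytes make in bulk, a few secreted proteins rose. Hp, the haemoglobin-binding haptoglobin, was at 85642, 75729 and 74013 normalised counts against 183111, 213432 and 182942 (1.30 ± 0.17, adjusted p = 0.0113). Hpx, the haem-binding haemopexin, was at 146347, 162117 and 153872 against 295848, 352746 and 313501, and the iron oxidase Cp at 26490, 22914 and 27388 against 40835, 53751 and 47963. The libraries labelled KO were at about the same level as each other for Hp and Hpx. The call of Hp held without any 1 library, and those of Hpx and Cp in 1 of 6 fits. Pltp, which transfers phospholipid between lipoproteins and is also made by macrophages, was at 587, 761 and 714 against 1386, 2097 and 2154 (1.43 ± 0.19), the 1 call among 23 apolipoprotein and lipoprotein genes. Tmem176a, which encodes a membrane channel protein of antigen-presenting cells, was at 6193, 7509 and 6221 against 18289, 17212 and 17866 (1.43 ± 0.11).

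Of 31 enzymes that conjugate drugs and hormones, 5 fell and none rose, with a median log2 fold change of -0.43, and all libraries labelled KO were below all labelled wild type for 16 of them, against 11.7% of all genes tested. In place of 5, the 6 fits without 1 library called 0, 1, 0, 2, 0 and 1 members. The sulfotransferase Sult1b1 was at 869, 842 and 940 normalised counts against 682, 557 and 536 (-0.59 ± 0.12, adjusted p = 0.0396), and the glutathione transferase Gstm4 at 1851, 1845 and 1883 against 1258, 1244 and 1490. The wild type values of both genes lay close together, and each difference was under 1 log2 unit. Ugt2b38, a glucuronosyltransferase outside the list that has close copies, was at 2248, 2118 and 2526 against 1199, 1019 and 980, and its call held without any 1 library (-1.11 ± 0.11). None of 28 cytochrome P450 genes of families 1 to 3 was called by limma, while 12 had an unadjusted p under 0.05, edgeR called 0 and DESeq2 5, and the median was -0.42. Cyp3a11, which oxidises many drugs, was at 121487, 151607 and 173685 against 117862, 89537 and 106501 (-0.50, adjusted p = 0.24).

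Of 16 carboxylesterases, which hydrolyse ester drugs and lipids, 2 fell, and the groups of 10 did not overlap with KO below (11.7% of all genes tested). Ces3b (chromosome 8, 105083753 to 105093929) was at 26510, 27417 and 25670 normalised counts against 12724, 12165 and 13888 (-1.04 ± 0.10, adjusted p = 0.00527). Ces2c was at 3618, 2336 and 4077 against 1817, 1061 and 1455. The call of Ces3b held without any 1 library, that of Ces2c in 2 of 6 fits. Cyp4a12b, an omega-hydroxylase of fatty acids that male liver is known for, was at 11562, 8780 and 12377 against 5265, 5007 and 4156 (-1.17 ± 0.15). Mup9, Mup8 and Mup1, named by the rule on size and p, also fell: they encode major urinary proteins, pheromone carriers whose genes are near-identical copies and can share reads. Mup9 was at 18577, 31370 and 33976 against 4467, 8756 and 4759, and Mup8 at 32782, 46052 and 35267 against 16522, 16971 and 11980. Mup1 was at 40550, 57423 and 44473 against 20377, 22191 and 14911, so all libraries labelled KO were below all labelled wild type in the 3 genes. Phlda1, a pleckstrin homology domain protein, was at 2967, 2688 and 2468 against 936, 1156 and 1276 (-1.28 ± 0.13).

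Among transporters of the hepatocyte surface, 10.7% of those tested were called, against 3.72% of all genes tested. Of 28 solute carriers and exporters, 2 fell and 1 rose, where 0.701% of all genes tested fell and 3.02% rose. Slc10a1, the uptake transporter of bile acids, was at 20576, 21335 and 20531 normalised counts against 15134, 12409 and 12483 (-0.65 ± 0.11, adjusted p = 0.0255). Abcg8, a sterol exporter into bile, was at 2968, 2384 and 2817 against 4135, 3916 and 4808 (0.66 ± 0.12, adjusted p = 0.0307). Its call was lost in each fit without 1 library, and that of Slc10a1 in 5 of the 6. Outside the list, the organic cation exporter Slc47a1 was at 3082, 3200 and 3336 against 2005, 1802 and 1842 (-0.77 ± 0.08), and Slc22a28 at 1204, 1267 and 1353 against 789, 770 and 743 (-0.73 ± 0.09). These 2 calls held without any 1 library.

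The share called was 11.1% of hepatocyte transcription factors and nuclear receptors, 20% of periportal genes and 0% of pericentral genes, against 3.72% of all genes tested. Of 27 hepatocyte transcription factors and nuclear receptors, Onecut1 and Pparg fell and Nr0b2 rose. Onecut1 (HNF6), which is known to depend on growth hormone, was at 877, 761 and 875 normalised counts against 86.0, 118 and 344, with KO replicate 3 above the other libraries of its label. Pparg, a lipogenic receptor, was at 276, 251 and 377 against 161, 135 and 161, and Nr0b2 (SHP), which represses bile acid synthesis, at 1181, 770 and 862 against 1707, 1724 and 1586. Each of these calls held in 1 of the 6 fits without 1 library. Onecut1 was also the 1 call among 21 genes of the growth hormone, STAT5 and IGF axis, whose median log2 fold change was 0.093. Of 15 periportal genes, 3 rose: the gluconeogenic enzyme Pck1, Ctsc and the lipid droplet enzyme Hsd17b13. In nuclei Ctsc was highest in group 3, which led for Kupffer markers, at 9.83 (wild type label) and 9.33 (KO label). In group 1, which led for hepatocyte markers, it was at 0.606 and 0.533. Ctsc was thus lower under the KO label in both groups, while it rose in bulk, and the cell type of its rise was not tested. Hsd17b13 was at 2670, 2381 and 3401 against 6085, 5438 and 5929 (1.06 ± 0.14, adjusted p = 0.0116), a call that held without any 1 library. None of 15 pericentral genes was called by limma, edgeR or DESeq2, and 1 had an unadjusted p under 0.05. Of 26 peroxisomal genes, Hacl1 and Abcd3 fell, the median was -0.28, and the groups of 16 lay apart with KO below (11.7% of all genes tested). Each of the calls of Pck1, Ctsc and Hacl1 held in 1 of the 6 fits, and that of Abcd3 in none.

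**Figure D4:**
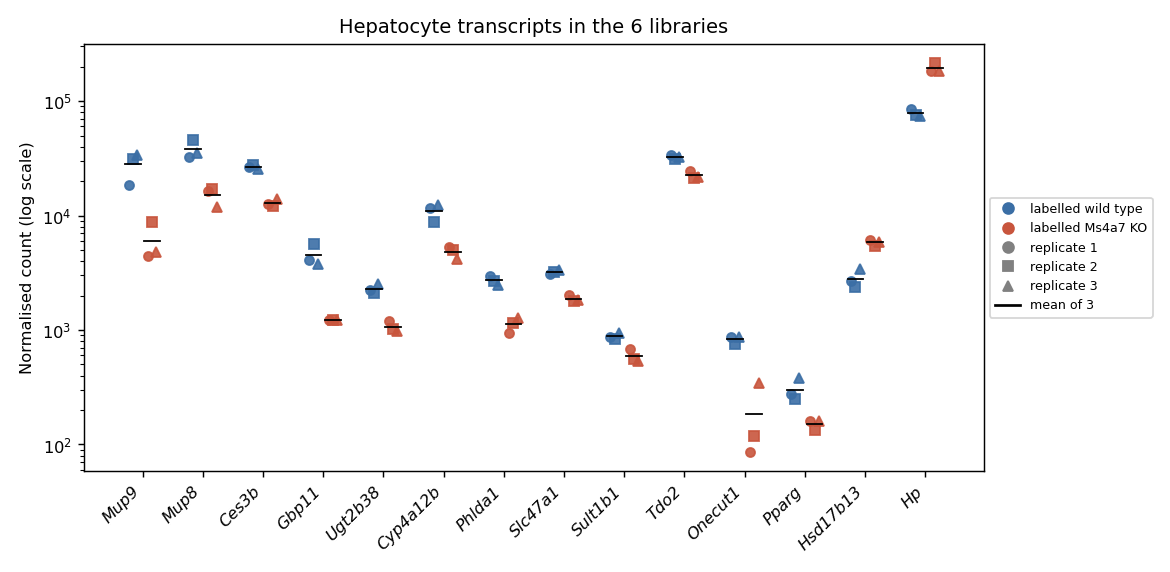
Normalised count (log axis) of 14 genes, most of hepatocyte function, in each library. The replicate is shown as symbol, the label as colour and the mean of 3 as a bar. Gbp11 belongs to the interferon gamma list. The libraries labelled KO lie below those labelled wild type for the first 12 genes and above them for Hsd17b13 and Hp, and KO replicate 3 stands above the others of its label for Onecut1.

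Several groups had no call by limma. These were 14 genes of the hypoxia response, 12 of the ATF4 stress response, 14 heat shock proteins and chaperones, 28 nuclear genes of the respiratory chain, 27 of the proteasome, 32 ribosomal proteins and 22 collagens and crosslinking enzymes. At an unadjusted p under 0.05 they had 3, 5, 4, 4, 5, 0 and 9 members in that order, edgeR called none of the first 6 groups, and DESeq2 called 1, 1, 1, 1, 0 and 0 of them. Collagens had a median log2 fold change of 0.62, with 8 whose libraries labelled KO all lay above the others (12.4% of all genes tested did), and DESeq2 called 5 and edgeR 1. Col3a1, a fibrillar collagen, was at 346, 365 and 348 normalised counts against 531, 500 and 776 (0.74 ± 0.17, adjusted p = 0.0587). Gdf15, a stress-induced hormone, was at 72.7, 16.8 and 17.1 against 122, 80.4 and 250 (2.24 ± 0.62, adjusted p = 0.102). The groups of both genes did not overlap, and neither was called. Of 18 matrix proteases and inhibitors, 3 rose: the membrane collagenase Mmp14 (1.68 ± 0.20, held without any 1 library), cathepsin S (Ctss, 2.09 ± 0.36) and Mmp12, with 3, 2, 2, 2, 1 and 1 called in the fits without 1 library. Mmp14 was at 227, 200 and 175 against 474, 750 and 742. Mmp12 had 5 reads under the wild type label and 50 under the KO label, and passed the filter on low values only through the libraries labelled KO. Of 20 metallothionein and iron genes, the hepcidin co-receptor Hjv fell (-0.50 ± 0.08, called in 1 of 6 fits) and Cp, above, rose.

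The deposited nucleus table was used to see where the genes called in bulk are at their highest. It gives the mean level of each gene, as molecules scaled to 10000 per nucleus, in 12 numbered groups of nuclei of each genotype label, with 3 livers pooled in the 1 library per label, so it allows no test. Of the genes that rose in bulk, 435 reached a level of 0.1 in some group. Of these, 148 (34.0%) were highest in group 5, 116 (26.7%) in group 3 and 58 (13.3%) in group 10, against 14.2%, 7.54% and 10.2% of 12092 genes tested in bulk. Group 3 had the highest level of 13 of 16 Kupffer markers, group 5 of 10 of 10 neutrophil markers and group 10 of 12 of 12 dendritic cell markers. Of 88 genes that fell in bulk, 39 (44.3%) were highest in group 0 and 15 (17.0%) in group 1, against 9.12% and 7.38%. Of 15 hepatocyte markers, 10 were highest in group 1, 3 in group 5 and 2 in group 0, so group 5 led for markers of more than 1 cell type.

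Direction in the nuclei was mixed. Of 389 genes that rose in bulk and reached the minimum in group 3, 63.0% were higher in the nuclei labelled KO, against 52.0% of all such genes. Marco in group 3 was at 0.188 under the wild type label and 0.761 under the KO label, and Acod1 in group 5 at 3.09 and 6.07. Of 78 genes that fell in bulk and reached the minimum in group 0, 70.5% were higher in the nuclei labelled KO, against 48.9% of all such genes, which is the opposite direction. Ces3b in group 1 was at 1.73 and 7.38, and Onecut1, which was highest in group 7, at 3.33 and 7.71 in group 1, while both fell in bulk. Hsd17b13 in group 1 was at 5.06 and 4.07 and rose in bulk. Other genes had the same direction in group 1 as in bulk: Pparg was at 1.83 and 0.181 and Slc47a1 at 1.95 and 1.34, and Pck1 was at 4.68 and 6.77 and Abcg8 at 1.37 and 3.61. In group 1, 57.5% of 73 genes that fell in bulk and 22.5% of 102 that rose were higher in the nuclei labelled KO, against 44.0% of all such genes.

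**Figure D5:**
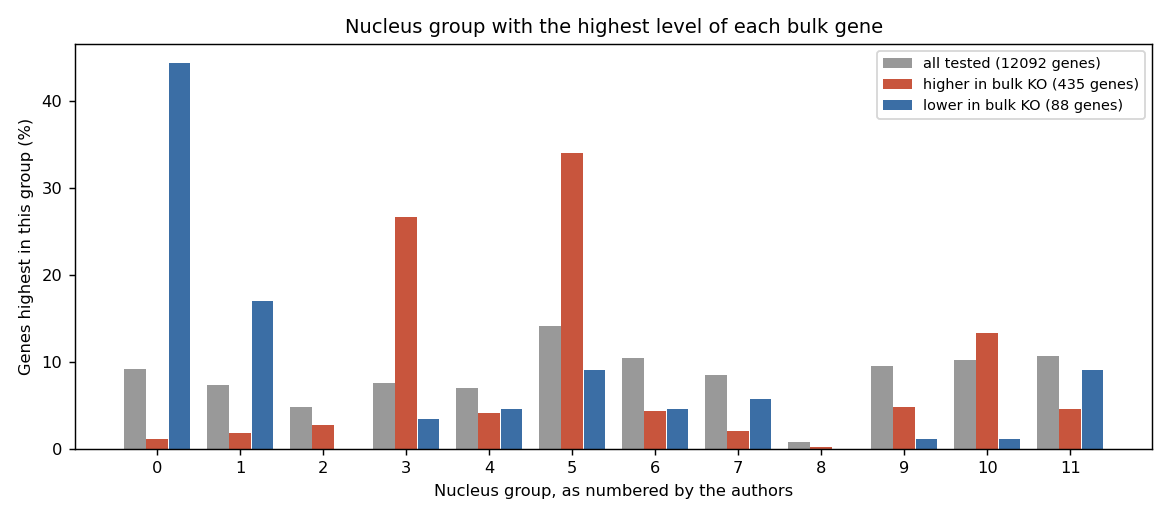
Percent of genes whose highest mean level lies in each numbered nucleus group, for all genes tested in bulk (grey), those that rose (red) and those that fell (blue). Genes that rose peak in groups 5 (34.0%) and 3 (26.7%), and genes that fell in group 0 (44.3%).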

How the data were processed

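RNA reads in genes were counted and scaled by the authors, and the deposited signal values are counts divided by a size factor per library. This was read from the values: 100% were whole multiples of 1 step (tolerance 0.01) in each of the 6 libraries, so reads could be recovered. The submitters' processing notes name the build mm10 and the tools Cell Ranger, Seurat 4.0.1, FastQC, STAR and DESeq2. The read counter, its strand setting and the annotation are not given in the sources used here. The nucleus signal was made by the authors as a mean over nuclei, as deposited. The deposited log2 fold changes and p-values of the authors were not used.

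Genes with at least 10 normalised counts in 3 or more of 6 libraries were tested with limma 3.58.1 in R 4.3.3 (2-sided, lmFit then eBayes with a mean-variance trend) on log2(value + 1), with Benjamini-Hochberg adjustment over all genes tested and a threshold of 0.05. The fit was tested on simulated data. Alternatives were edgeR 4.0.16 (quasi-likelihood) and DESeq2 1.42.0 on recovered reads, a pseudocount of 10, no filter, a mean of at least 50, quantile and TMM scaling, a replicate block, and each library left out. Libraries of 1 label had a chi-square per degree of freedom of 37.4 to 74.6 and were kept as separate samples. Ratios of low read counts have exact (Clopper-Pearson) intervals, which cover counting error only.

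The comparison, the 52 gene lists and the rule for named genes were chosen with earlier results of these data known. The rule names Ms4a7, the 10 genes per direction with the smallest p among calls whose groups do not overlap at a mean of at least 50, the 5 per direction with the largest difference in mean, up to 3 called members of each list (or the member with the smallest p), and the 5 with the largest range within each label. Other members are named where their list is counted in full, and a few are not reported here. Members named for comparison after their values were seen are Clec4f, Adgre1, Trem2, Tlr4, Rela, Nfkb1, Cyp3a11 and Cish. Positions are from GENCODE vM21 (GRCm38) and promoter sequences from RefSeq (GRCm38.p6).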

Additional observations from a re-analysis of the deposited data

How the results depend on the processing

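The 589 calls, 478 higher and 111 lower, became 1241, 919 and 322 with DESeq2 on recovered reads, and all 589 were among its calls. edgeR called 648, of which 574 were shared. Without 1 library the calls ranged from 124 to 530, those higher from 84 to 439 and those lower from 29 to 91. They were lowest without KO replicate 2 (124) and KO replicate 3 (178), and each such fit leaves 1 label with 2 libraries. The log2 fold change of Ms4a7 ranged from 2.22 to 2.88 in these fits and was not called without KO replicate 2 (2.64) or KO replicate 3 (2.53). In all 6 of these fits, 36 of the 90 calls among named genes held. Genes not called changed sign in a few: Cela1 (-0.19) ranged from -0.43 to 0.051, Moxd1 (1.46) from -0.23 to 3.84 and Trim12a (2.23) from -0.19 to 3.51. Filters, pseudocount, quantile and TMM scaling gave 466 to 643 calls. The labels do not say whether the replicate numbers pair the libraries. Deviations of same-numbered libraries correlated at 0.119, -0.03 and -0.02, which with 3 libraries per label cannot exclude pairing. A replicate block gave 822 calls, 687 higher and 135 lower. Depth limits the genes with few reads, whose ratios have wide intervals.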

Other observations

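Some genes were nearly silent in some libraries and well expressed in others, without following the label. Taking 5 or fewer normalised counts as low and 50 or more as high, 18 genes were one or the other in each of the 6 libraries. Of these, 2 followed the label (Acod1 and Slc2a6) and 16 varied within a label. Mir692-1, Gm26445 and Camk2b, a calcium-dependent kinase, were low in the same libraries, wild type replicate 1 and KO replicates 2 and 3: Camk2b was at 1.21, 80.1 and 151 in wild type and at 216, 1.18 and 0 in KO. Mir692-2 had the same order, at 31.5, 9378 and 8321 against 10042, 30.7 and 35.7. Snhg11 was at 469, 1.29 and 250 against 0, 212 and 0. Moxd1 was at 75.2, 6.46 and 839 against 783, 1606 and 6.91. Trim12a was at 0 in wild type replicate 3 alone, with 102 to 194 in the others, and Cebpe, a transcription factor of granulocytes, was at 0 in KO replicate 1 alone, with 88.7 to 207 in the others. None of these genes that varied within a label was called.

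Cish, a target of growth hormone signalling chosen after its values were seen, had normalised counts of 846, 905 and 992 in wild type and of 68.8, 74.4 and 485 in KO (-2.74 ± 0.67, adjusted p = 0.0698 by limma). KO replicate 3 stood above the other 2 labelled KO, as it did for Onecut1, and 1 of the 21 genes of the growth hormone, STAT5 and IGF list was called.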
